A study of Mus musculus with 4 samples.

Results

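The genes described here are 9 transcriptional feedback inhibitors of the mitogen-activated protein kinase (MAPK) cascades: the dual-specificity phosphatase genes Dusp1, Dusp2, Dusp4, Dusp5 and Dusp6, the Sprouty genes Spry1 and Spry2, and the Spred genes Spred1 and Spred2. They were taken by symbol, and the set was chosen with earlier results of these data known. Each symbol matched 1 gene ID among the 53801 genes of the count table. All 9 were among the 17462 genes that passed the filter on low counts. RNA was sequenced from osteoclast precursor cells, the myeloid cells that can become bone-resorbing osteoclasts, of wild type C57BL/6 mice. The cells came from 2 mice and are numbered precursor cells 1 and precursor cells 2. The number was taken as the mouse, which the labels do not state. Each preparation was given PBS (phosphate-buffered saline, the control) or DKK1 at 200 ng/ml for 3 h, which made 4 libraries, 2 per treatment. DKK1 is a secreted protein that blocks the Wnt co-receptors Lrp5 and Lrp6. The sources used here give neither the age of the mice nor how the cells were isolated.

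MAPK cascades pass signals from surface receptors through Ras, RAF and MEK to ERK, and through parallel kinases to JNK and p38. In osteoclast precursors, M-CSF acting on Csf1r and RANK ligand acting on Tnfrsf11a both signal through these kinases. The cascades switch on their own inhibitors: DUSP proteins remove the activating phosphates from ERK, JNK or p38, while Sprouty and Spred proteins act upstream, between the receptor and RAF. The transcripts of these genes are often read as a delayed record of MAPK activity, although transcript levels do not measure phosphorylation.

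The libraries held 41163663 to 53537927 counts, and the 9 genes had between 121 (Spry1) and 7557 (Spred1) counts in a library. Monocyte and macrophage markers were present as the cell label implies: all 12 of the list had counts, with Csf1r at 1969 to 2593 CPM and Tnfrsf11a at 197 to 204 CPM. CPM is the count normalised to sequencing depth, here after TMM scaling, which corrects for the makeup of each library. Markers of other blood cells were also found and differed between the preparations. The 6 megakaryocyte markers summed to 1634 and 1554 CPM in precursor cells 1 (PBS, then DKK1) and to 1012 and 1023 CPM in precursor cells 2. Lists for T and NK, erythroid, dendritic, mast, stromal and endothelial cells were also examined and are not described here. The 10 neutrophil markers summed to 5354 and 5214 CPM in precursor cells 1 (PBS, then DKK1) and to 9731 and 9852 CPM in precursor cells 2. The 10 B and plasma cell markers summed to 396 and 267 CPM in precursor cells 1 and to 688 and 685 CPM in precursor cells 2. The higher sum came from Jchain, of plasma cells, at 2.99 and 2.27 CPM in precursor cells 1 and 504 and 512 CPM in precursor cells 2, while 8 of the 10 were lower in precursor cells 2. No marker of the monocyte and macrophage, neutrophil, or B and plasma cell lists was at 0 in all 4 libraries. Vpreb1, of early B cells, was at 0 in both libraries of precursor cells 2. In bulk RNA, fewer cells of a type and less RNA per cell cannot be told apart.

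Promoters are shown for the feedback genes in which a complete motif for a stimulus-driven factor was found, and for Spry2, which differed between the preparations in the direction opposite to Dusp4, Dusp5 and Dusp6. Each is the RefSeq sequence of GRCm38.p6 from 250 bases before to 50 bases after the gene's RefSeq start, on the gene's own strand. Capitals mark 2 adjacent CArG boxes (serum response factor) in Dusp5, the CRE TGACGTCA (CREB and ATF factors) in Dusp1 and the EGR site GCGNGGGCG in Dusp2. The Spry2 window holds no capitals because no searched motif was found. The windows are chr19:53528895-53529194 (plus strand) for Dusp5, chr17:26508423-26508722 (minus strand) for Dusp1, chr2:127335909-127336208 (plus strand) for Dusp2 and chr14:105896770-105897069 (minus strand) for Spry2.
Dusp5: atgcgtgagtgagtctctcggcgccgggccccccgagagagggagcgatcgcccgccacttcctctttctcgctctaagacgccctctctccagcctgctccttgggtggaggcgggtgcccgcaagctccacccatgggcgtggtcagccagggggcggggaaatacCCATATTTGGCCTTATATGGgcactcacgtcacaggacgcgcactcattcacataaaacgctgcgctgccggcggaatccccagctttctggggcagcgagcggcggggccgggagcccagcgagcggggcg
Dusp1: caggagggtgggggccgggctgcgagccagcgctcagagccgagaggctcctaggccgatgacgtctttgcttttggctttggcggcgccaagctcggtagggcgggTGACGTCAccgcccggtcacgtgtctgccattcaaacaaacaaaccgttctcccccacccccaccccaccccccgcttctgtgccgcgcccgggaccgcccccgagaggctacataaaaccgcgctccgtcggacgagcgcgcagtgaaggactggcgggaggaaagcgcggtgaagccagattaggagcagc
Dusp2: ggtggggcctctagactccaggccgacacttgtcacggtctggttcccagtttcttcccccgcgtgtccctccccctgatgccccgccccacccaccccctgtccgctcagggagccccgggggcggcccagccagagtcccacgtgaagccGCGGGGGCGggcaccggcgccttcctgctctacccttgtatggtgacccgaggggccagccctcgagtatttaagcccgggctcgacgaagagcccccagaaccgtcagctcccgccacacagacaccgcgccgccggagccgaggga
Spry2: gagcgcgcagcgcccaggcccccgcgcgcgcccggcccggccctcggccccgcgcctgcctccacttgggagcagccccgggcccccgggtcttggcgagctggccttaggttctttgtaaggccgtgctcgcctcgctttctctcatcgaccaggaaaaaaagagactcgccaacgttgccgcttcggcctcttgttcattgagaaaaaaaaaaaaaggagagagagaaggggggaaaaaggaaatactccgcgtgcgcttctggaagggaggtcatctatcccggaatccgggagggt

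The CArG boxes of Dusp5 begin at -82 and -72 from the start, the CRE of Dusp1 at -143 and the EGR site of Dusp2 at -98. Both strands were searched for these motifs, for the AP-1 site TGANTCA and for the ETS core CCGGAAG. Among all 32851 RefSeq promoters of 300 bases, 1.63% held a CArG box, 1.79% the CRE, 5.55% the EGR site, 7.81% the AP-1 site and 8.86% the ETS core. The CRE core TGACG, which the full CRE contains, was found in Dusp1, Dusp2, Dusp5 and Spred2 and in 20.8% of all promoters. Of the 8 feedback genes with a listed promoter, Dusp6, Spry1, Spry2 and Spred1 held none of the motifs in this window. A match is a run of letters and not a measured binding site.

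The levels per length separated the 9 genes into 3 broad tiers. RPKM here means CPM per kilobase of merged exons. Dusp6, the cytoplasmic phosphatase specific for ERK, had a mean of 21.9 RPKM (range 17.8 to 25.1 over the 4 libraries). Dusp1, the nuclear phosphatase best known for inactivating p38 and JNK, had a mean of 21.6 RPKM (20.2 to 25.0), and Spred1, which brings neurofibromin to Ras, 21.0 RPKM (19.2 to 23.4). Dusp4, a nuclear phosphatase of ERK and JNK, followed at 15.2 RPKM (10.4 to 20.8). Below these stood Dusp2, a nuclear phosphatase of leukocytes, at 8.59 RPKM, Spred2 at 8.37, Dusp5, a nuclear phosphatase specific for ERK, at 6.09 and Spry2 at 5.93. Spry1 was lowest, ranging from 0.97 to 1.26 RPKM. Of the 8 neighbouring pairs in this order, 6 had overlapping ranges. The exceptions were Dusp4 over Dusp2 and Spry2 over Spry1. The overlapping neighbours also changed order from library to library, so their order is not resolved. Some genes further apart within a tier kept their order. Dusp4 was below both Dusp6 and Dusp1 in all 4 libraries, and Spry2 was below Dusp2 in all 4.

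The first comparison asked whether the feedback genes change when osteoclast precursors are exposed to DKK1. None of them passed the test. Of the 9 genes, 0 had an adjusted p under 0.05 in edgeR's quasi-likelihood test with the precursor cells as pairs (lowest adjusted p = 0.959), where 0.0515% of all 17462 genes tested were called (0.0401% higher and 0.0115% lower). Also 0 had an unadjusted p under 0.05, and DESeq2 and limma-voom gave 0 by either measure. The median log2 change of the 9 genes was -0.04, against -0.001 over all genes tested. All 5 Dusp genes had a negative estimate (median log2 -0.13) and all 4 Sprouty and Spred genes a positive one (median log2 0.12), but each 95% interval held 0.

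**Figure D1:**
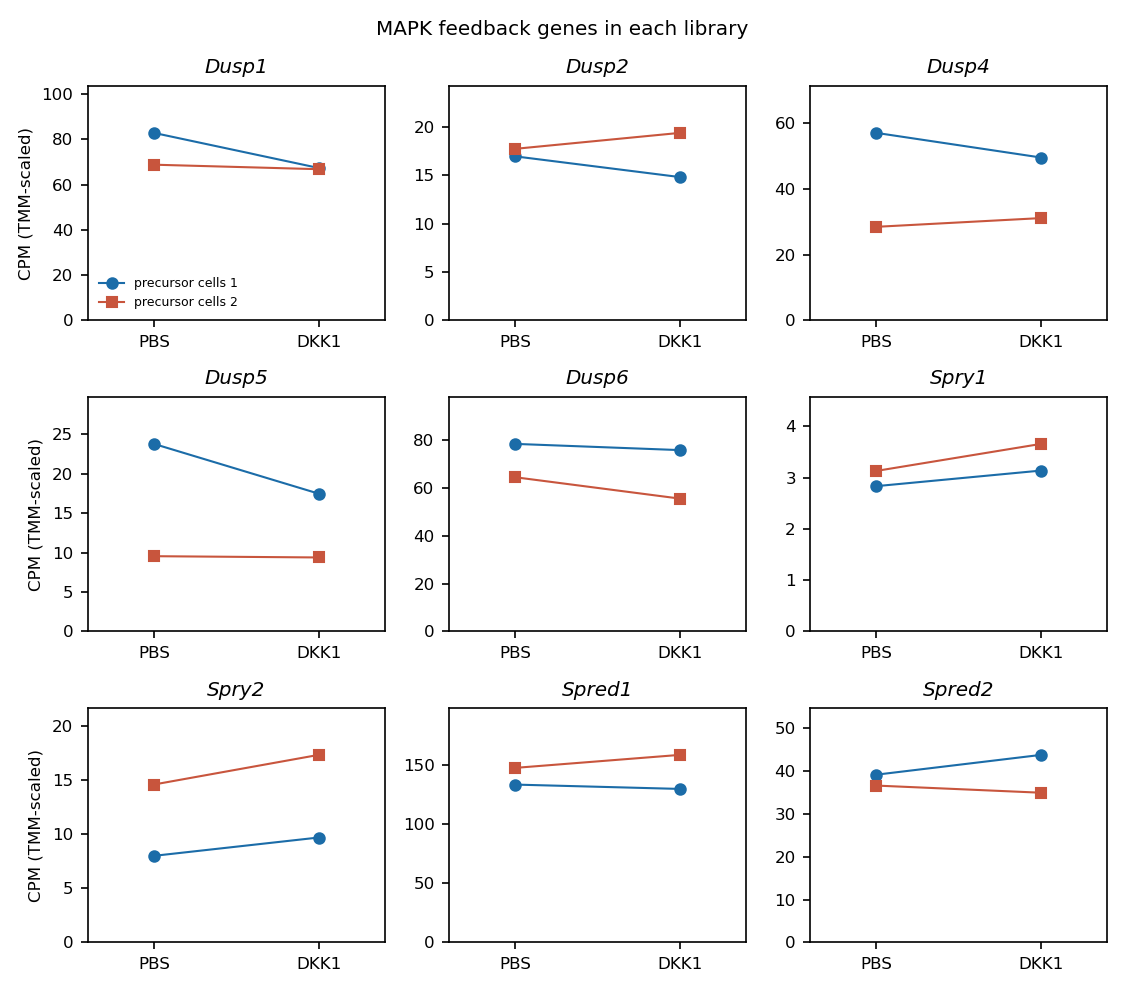
Level of each feedback gene in the 4 libraries, in TMM-scaled CPM on linear axes that start at 0; circles are precursor cells 1, squares are precursor cells 2, and lines join the PBS and DKK1 library of a preparation. Dusp4, Dusp5 and Dusp6 lie lower and Spry2 higher in precursor cells 2 under both treatments, while the lines from PBS to DKK1 fall most for Dusp5 and Dusp1 in precursor cells 1.

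Among the nuclear phosphatases, Dusp1 stood at 82.9 CPM with PBS and 67.4 with DKK1 in precursor cells 1, and at 68.8 and 66.8 CPM in precursor cells 2. Both DKK1 libraries were below both PBS libraries, though the libraries of precursor cells 2 lay close together. The edgeR log2 change was -0.17 (SE 0.09, 95% CI -0.40 to 0.05, n = 2 pairs; adjusted p = 0.959). Dusp5 stood at 23.8 and 17.5 CPM (PBS, then DKK1) in precursor cells 1 and at 9.54 and 9.38 CPM in precursor cells 2. Nearly all of its difference with DKK1 came from precursor cells 1, and the treatments overlapped. Its log2 change was the most negative of the 9 (-0.29, SE 0.15, 95% CI -0.66 to 0.08; edgeR adjusted p = 0.959).

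Dusp2 and Dusp4 went opposite ways in the preparations. Dusp2 stood at 16.9 and 14.8 CPM in precursor cells 1 and at 17.7 and 19.4 CPM in precursor cells 2 (PBS, then DKK1). Dusp4 stood at 57.1 and 49.6 CPM in precursor cells 1 and at 28.5 and 31.2 CPM in precursor cells 2. For both, the DKK1 library was the lower of the pair in precursor cells 1 and the higher in precursor cells 2. Their edgeR log2 changes were -0.04 (95% CI -0.37 to 0.29) and -0.06 (95% CI -0.33 to 0.21). Dusp6 had 78.6 and 76.0 CPM in precursor cells 1 and 64.6 and 55.6 CPM in precursor cells 2, so that DKK1 was the lower library in each pair (log2 -0.13, 95% CI -0.33 to 0.07).

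Sprouty proteins restrain Ras and ERK signalling downstream of receptor tyrosine kinases. Spry2 stood at 7.98 and 9.67 CPM in precursor cells 1 and at 14.6 and 17.3 CPM in precursor cells 2 (PBS, then DKK1). The DKK1 library was the higher one in both pairs, by log2 0.28 and 0.25, while the treatments overlapped because the preparations started from different levels. Its edgeR log2 change of 0.26 (SE 0.13, 95% CI -0.07 to 0.59) had an unadjusted p of 0.0998 and an adjusted p of 0.959. Spry1 had 2.83 and 3.14 CPM in precursor cells 1 and 3.13 and 3.66 CPM in precursor cells 2. Its DKK1 libraries were above both PBS libraries, the lower of them only just, and it rests on 121 to 178 counts a library and its interval was the widest (log2 0.18, 95% CI -0.42 to 0.78). Dusp1 and Spry1 were the only 2 of the 9 whose treatments did not overlap, where 16.2% of all genes tested did not.

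Spred proteins anchor neurofibromin at the membrane, where it inactivates Ras. Spred1, the most counted of the 9, had 133.8 and 130.1 CPM in precursor cells 1 and 148 and 159 CPM in precursor cells 2 (PBS, then DKK1). Its log2 change was 0.03 with the narrowest interval (95% CI -0.13 to 0.19). Spred2 had 39.2 and 43.8 CPM in precursor cells 1 and 36.7 and 35.0 CPM in precursor cells 2 (log2 0.05, 95% CI -0.19 to 0.30). For both genes the DKK1 library was the higher of the pair in one preparation and the lower in the other. Nf1 itself, which encodes neurofibromin, had a log2 change of 0.24 with an unadjusted p of 0.0269 and an edgeR adjusted p of 0.959. Nras, which encodes a Ras protein, had a log2 change of -0.46 (unadjusted p = 0.0496, edgeR adjusted p = 0.959), with 116 and 63.5 CPM in precursor cells 1 and 119 and 115 CPM in precursor cells 2.

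**Figure D2:**
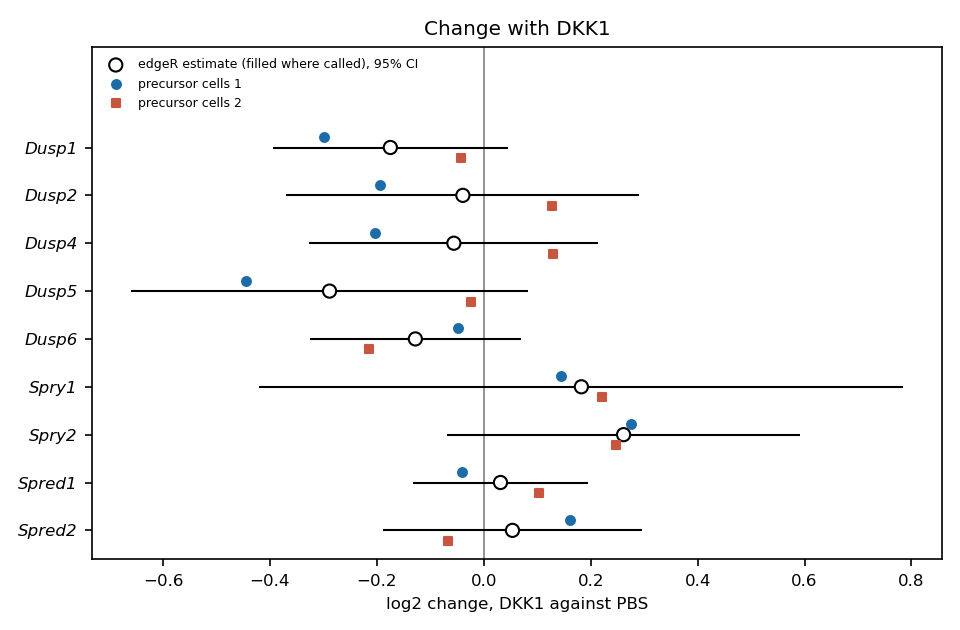
Log2 change with DKK1 against PBS for each feedback gene; open circles with bars are the edgeR estimate and its 95% CI (n = 2 pairs), blue circles and red squares are the difference within precursor cells 1 and 2. Each interval crosses 0, the Dusp estimates lie left of 0 and the Sprouty and Spred estimates right of it, and the pairs lie close together for Spry2 and Spry1.

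Within pairs, 5 of the 9 genes (55.6%) had the same direction in both preparations, near the 51.7% of all genes tested: Dusp1, Dusp5 and Dusp6 were lower and Spry1 and Spry2 higher with DKK1. Of the 18 within-pair ratios, 10 had an exact 95% interval without 0 on the log2 scale. These intervals cover counting error only and leave out variation between cultures. For 2 genes both intervals left out 0. For Spry2 they lay on the same side (0.09 to 0.46 and 0.09 to 0.41), and for Dusp4 on opposite sides (-0.28 to -0.13 in precursor cells 1 and 0.01 to 0.24 in precursor cells 2). Whether the response differs between the preparations was not tested, since each holds 1 library per treatment.

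The authors' deposited tables, which compare 1 library with 1 in each pair, called 0 of the 9 genes in either pair. There a call needs an FDR under 0.05 and a log2 ratio of at least 1 in size, which described all 13253 and 13175 genes listed. In the authors' deposited table for precursor cells 1, the FDR was under 0.05 for Dusp1 (log2 ratio -0.29, FDR 0.000491), Dusp4 (-0.20, FDR 0.0372) and Dusp5 (-0.44, FDR 1.21e-05). In the authors' deposited table for precursor cells 2 it was under 0.05 for Dusp6 alone (log2 ratio -0.21, FDR 0.0342). Each of the 4 values belongs to a single pair of libraries without a replicate.

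The wider pathway gave no call with DKK1 either. Of 13 other DUSP, Sprouty and Spred genes, edgeR called 0 (median log2 -0.03). Dusp9 and Dusp18 had the smallest p of that list (log2 -0.80 and 0.58, adjusted p = 0.959 each), both at low levels of 0.46 to 2.91 CPM. Of 16 Ras and adaptor genes, 13 ERK cascade genes, 15 JNK and p38 cascade genes and 14 receptors that feed the cascades, 0 were called, where 0.0515% of all genes tested were. Their median log2 changes were -0.002, -0.0003, -0.01 and -0.001. Nf1 and Nras, given above, had the smallest p of the Ras and adaptor genes. Pebp1, which encodes an inhibitor of RAF, was lower in both pairs (log2 -0.26, unadjusted p = 0.0144) and Map2k7, a JNK pathway kinase, had a log2 change of 0.61 (unadjusted p = 0.0319). Each had an edgeR adjusted p of 0.959. The next smallest p within the ERK cascade list belonged to Map2k2, a MEK gene (log2 -0.09). Within the JNK and p38 list it belonged to Mapk8, a JNK gene (log2 0.24). Among the receptors the smallest belonged to Csf2ra and Csf2rb, subunits of the GM-CSF receptor (log2 -0.09 and 0.31). These 4 genes also had an edgeR adjusted p of 0.959. Map2k7 went from 18.3 to 38.5 CPM in precursor cells 1 and from 36.1 to 40.02 CPM in precursor cells 2.

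ERK-driven transcripts, the genes whose products or messages typically follow ERK activity, were also not called with DKK1. The list includes the transcription factor genes Elk1, Elk3 and Srf, for which the product and not the message may be what follows ERK. Of 19 tested, 0 passed edgeR's test, where 0.0515% of all genes tested did. A positive estimate was found for 3 of the 19 (median log2 -0.07) and for 8663 of all 17462 genes tested. Ier2, an immediate early gene, had the smallest p (log2 -0.26, unadjusted p = 0.0237, adjusted p = 0.959). It stood at 60.9 and 49.0 CPM in precursor cells 1 and at 34.4 and 29.9 CPM in precursor cells 2. Egr1, a zinc finger factor induced by ERK through serum response elements, had a log2 change of -0.37 (unadjusted p = 0.0441, edgeR adjusted p = 0.959). It went from 18.8 to 14.0 CPM and from 6.62 to 5.52 CPM. Both genes were lower with DKK1 in each pair, and each stood lower in precursor cells 2 than in precursor cells 1 under both treatments.

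The second comparison asked how far the feedback genes differ between the 2 preparations. The phosphatase genes Dusp4, Dusp5 and Dusp6 were lower and the Sprouty gene Spry2 was higher in precursor cells 2. By the same edgeR fit, 3 of the 9 genes were lower (15.9% of all genes tested were) and 1 was higher (17.9% of all genes tested were). Together 4 of 9 (44.4%) were called, against 33.8% of all genes tested, so the share of feedback genes called was near that background. No preparation was replicated: the test compares these 2 preparations, with PBS and DKK1 libraries standing as repeats.

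Dusp5 differed most of the 9, at 23.8 and 17.5 CPM in precursor cells 1 against 9.54 and 9.38 CPM in precursor cells 2. It was 2.16-fold lower in precursor cells 2 (log2 -1.11, SE 0.15, 95% CI -1.49 to -0.73; edgeR adjusted p = 0.00355). Its promoter, printed above, holds the paired CArG boxes, while that of Dusp6, also lower, held none of the searched motifs. Whether promoter motifs bear on these differences was not tested. Dusp4, at 57.1 and 49.6 against 28.5 and 31.2 CPM, was 1.78-fold lower (log2 -0.83, 95% CI -1.11 to -0.56; edgeR adjusted p = 0.00298). Dusp6, at 78.6 and 76.0 against 64.6 and 55.6 CPM, was 1.29-fold lower (log2 -0.37, 95% CI -0.56 to -0.17; edgeR adjusted p = 0.0182). Spry2, at 7.98 and 9.67 against 14.6 and 17.3 CPM, was 1.80-fold higher (log2 0.85, 95% CI 0.52 to 1.18; edgeR adjusted p = 0.00558). In each of the 4 genes the preparations did not overlap.

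**Figure D3:**
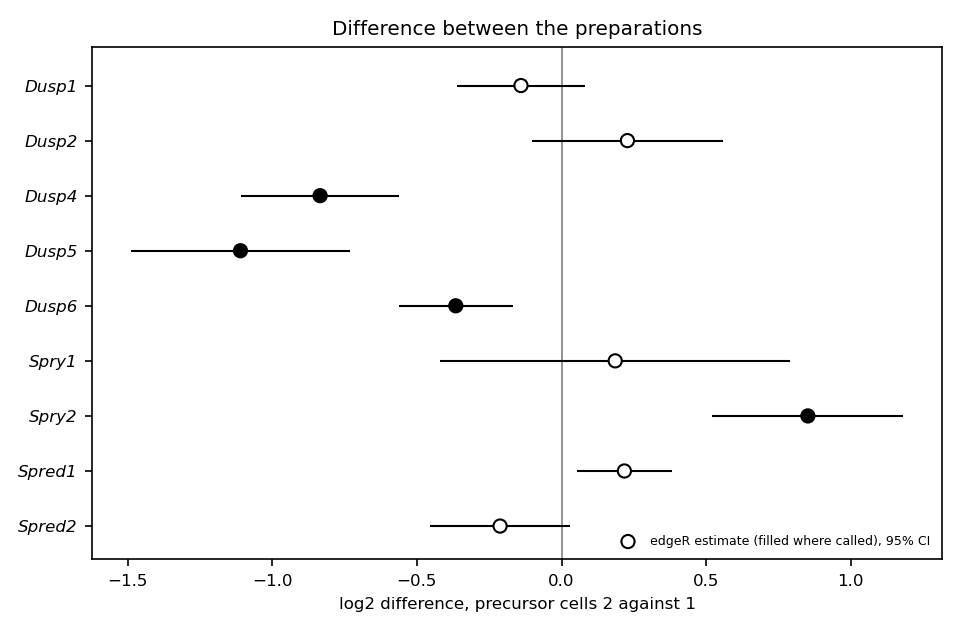
Log2 difference of precursor cells 2 against precursor cells 1 for each feedback gene, as the edgeR estimate with its 95% CI; filled circles passed the test at an adjusted p under 0.05 and open circles did not. Dusp4, Dusp5 and Dusp6 lie left of 0 and Spry2 right of it, with intervals that leave out 0. The interval of Spred1 also leaves out 0, but its circle is open.

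The other 5 genes were not called between the preparations. Spred1 was the closest to the threshold (log2 0.22, 95% CI 0.05 to 0.38; edgeR adjusted p = 0.0517). It passed with RLE scaling (0.0447), a stricter filter (0.0342), limma-voom (0.0481) and no treatment term (0.0394), and missed by more with DESeq2 (0.0841), upper-quartile scaling (0.105) and no filter (0.160). The log2 differences were 0.23 for Dusp2, 0.19 for Spry1, -0.21 for Spred2 and -0.14 for Dusp1. The 95% CI of Dusp1 ran from -0.36 to 0.08. In all, the preparations did not overlap for 7 of the 9 genes, and for 69.0% of all genes tested.

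The calls of Dusp4 and Dusp5 held when any 1 library was left out, with the treatment term dropped. Without the DKK1 library of precursor cells 2, 2 of the 9 genes were called: Dusp6 (edgeR adjusted p = 0.0900) and Spry2 (0.0647) lost their calls. Dusp6 also lost its call without the PBS (0.0776) or the DKK1 library (0.0506) of precursor cells 1, and with no filter on low counts (0.0569).

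Most ERK-driven transcripts called between the preparations were lower in precursor cells 2. So were Dusp4, Dusp5 and Dusp6, while Spry2 was higher. Over all 9 feedback genes, 4 estimates were positive and the median log2 difference was -0.14. A shared cause was not tested. Of 19 ERK-driven transcripts tested, 12 were lower in precursor cells 2 and 2 higher. That is 73.7% called, against 33.8% of all genes tested. Their median log2 difference was -0.66, against -0.003 over all genes tested. Egr2, a zinc finger factor of the early response, was lower, at 21.9 and 19.9 CPM in precursor cells 1 and 5.20 and 4.26 CPM in precursor cells 2 (log2 -2.15, edgeR adjusted p = 0.000259). Myc, which drives growth, stood at 54.02 and 52.99 against 13.3 and 13.7 CPM (log2 -1.98, edgeR adjusted p = 6.93e-05). Plaur, the urokinase receptor, was lower as well (2.15-fold, edgeR adjusted p = 0.000840). Atf3, a stress-induced factor, was higher (log2 0.77, edgeR adjusted p = 0.000433), as was Jun (log2 0.41, edgeR adjusted p = 0.00447), which is named because its direction was seen to differ.

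**Figure D4:**
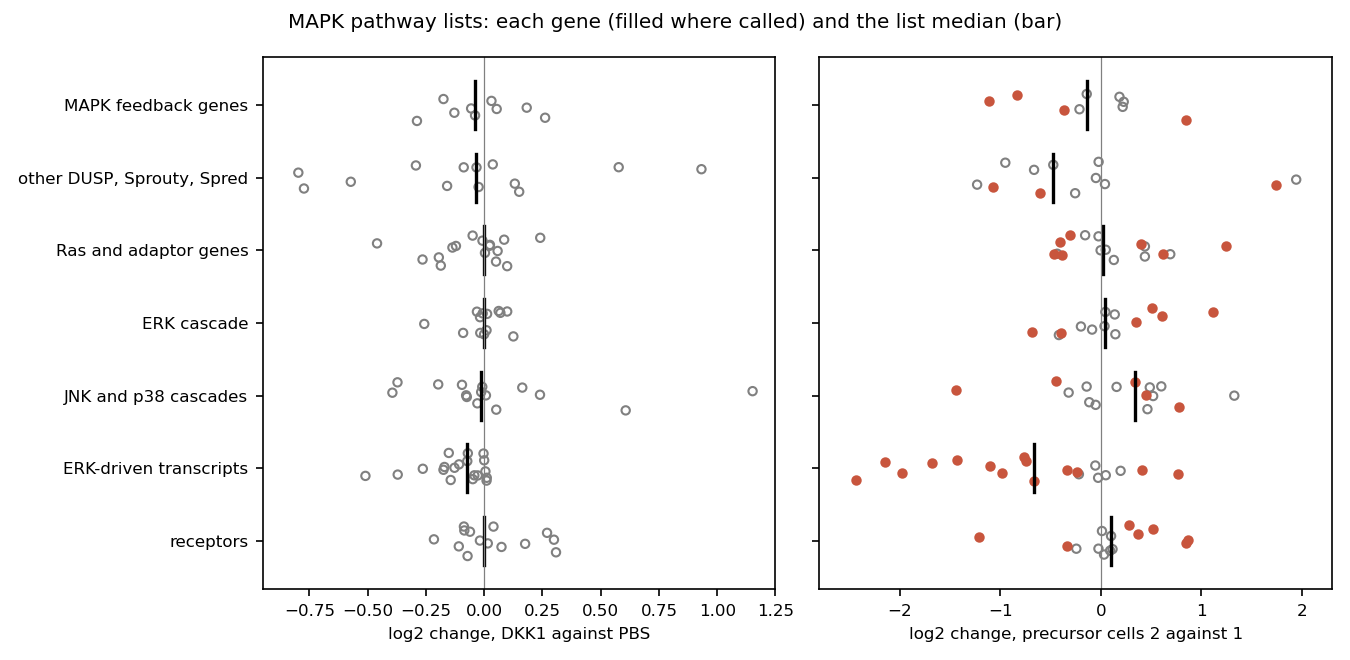
Log2 change of each tested gene of the MAPK lists with DKK1 (left) and in precursor cells 2 against 1 (right); filled points passed edgeR's test, open points did not, and black bars are list medians. No point is filled on the left; on the right most ERK-driven transcripts are filled and lie left of 0, and Spry3, with 0 counts in both libraries of precursor cells 2, is not drawn there.

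Among the relatives of the 9 genes, Dusp3 and Dusp16 were lower and Spred3 higher in precursor cells 2, and the other 10 of 13 were not called (23.1% called, against 33.8% of all genes tested; median log2 -0.47). Dusp16, a phosphatase of JNK and p38, stood at 61.0 and 49.9 against 23.3 and 29.2 CPM (log2 -1.07, edgeR adjusted p = 0.00421). Dusp3 had a log2 difference of -0.61 (edgeR adjusted p = 0.00399) and Spred3, at 1.77 and 1.73 against 5.43 and 6.30 CPM, 1.75 (edgeR adjusted p = 0.00369). Spry3 had 24 and 14 counts in precursor cells 1 and 0 in both libraries of precursor cells 2, at least 4.59-fold lower with a floor of 3 counts per library, and was not called. The list median is the same with Spry3 at that bound.

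The kinases themselves showed no common direction between the preparations. Of 13 ERK cascade genes, 4 were higher and 2 lower (46.2% called, against 33.8% of all genes tested; median log2 0.05). Map3k8, a kinase that activates MEK downstream of Toll-like receptors, was higher (log2 1.11, edgeR adjusted p = 0.00108), as was the MEK gene Map2k1 (log2 0.51, edgeR adjusted p = 0.00242) and the ERK-activated kinase gene Rps6ka1 (log2 0.61, edgeR adjusted p = 0.00340). Pebp1 was lower (log2 -0.69, edgeR adjusted p = 0.00139). Of 15 JNK and p38 cascade genes, 3 were higher and 2 lower (33.3% called, against the same 33.8%; median log2 0.34), with Mapkapk3 and Map3k1 higher (log2 0.78 and 0.45) and Map2k3 and Mapk11 lower (log2 -0.45 and -1.45).

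Upstream of the kinases, 3 of 16 Ras and adaptor genes were higher and 4 lower in precursor cells 2 (43.8% called, against 33.8% of all genes tested; median log2 0.02). Rasgrp1, an activator of Ras, was 2.37-fold higher (edgeR adjusted p = 0.000174) and Rasgrp4 had a log2 difference of 0.62. Nf1 was lower (log2 -0.39, edgeR adjusted p = 0.0157), as was Ptpn11, a phosphatase that promotes Ras signalling (log2 -0.31). Of 14 receptors, 5 were higher and 2 lower, that is 7 of 14 called against 33.8% of all genes tested (median log2 0.10). Csf1r and Tlr4 were higher (log2 0.37 and 0.87), as was Kit (log2 0.52), and Tlr2 was lower (log2 -0.34).

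The cell type markers moved with this comparison. Between the preparations, 9 of 10 neutrophil markers were higher in precursor cells 2, where 17.9% of all genes tested were higher and 15.9% lower. Of 10 B and plasma cell markers, 8 were lower and 2, Jchain and Mzb1 of plasma cells, were higher. Of 12 monocyte and macrophage markers, 6 were higher and 3 lower. Their summed levels were 32639 and 32407 CPM in precursor cells 1 and 24693 and 25176 CPM in precursor cells 2. The lower sum came from Lyz2, at 24909 and 24782 CPM in precursor cells 1 and 14288 and 14685 CPM in precursor cells 2. The part of these markers in the differences of Dusp4, Dusp5, Dusp6 and Spry2 was not tested. With DKK1, 0 markers of these 3 lists were called.

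The profile over 4 libraries is shared by many genes and singles out no partner. By distance between mean-centred log2 CPM values, the gene most like Dusp6 among 9975 was Spout1 (0.03), that most like Dusp1 was Pcid2 (0.04) and that most like Spred1 was Pip5k1b (0.02). Within a distance of 0.1 lay 93, 49 and 276 genes.

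On mm10 (GRCm38, GENCODE M21) all 9 are protein-coding genes. These GENCODE spans need not begin at the RefSeq starts used for the promoters: the Dusp1 window printed above lies inside its span. Dusp1 (ENSMUSG00000024190) lies on chromosome 17 from 26505590 to 26562128, Dusp2 (ENSMUSG00000027368) on chromosome 2 from 127336159 to 127338376 and Dusp4 (ENSMUSG00000031530) on chromosome 8 from 34807297 to 34819894. Dusp5 (ENSMUSG00000034765) lies on chromosome 19 from 53529109 to 53542431 and Dusp6 (ENSMUSG00000019960) on chromosome 10 from 99263231 to 99267489. Spry1 (ENSMUSG00000037211) lies on chromosome 3 from 37639947 to 37644598 and Spry2 (ENSMUSG00000022114) on chromosome 14 from 105891947 to 105896819. Spred1 (ENSMUSG00000027351) lies on chromosome 2 from 117121374 to 117182279 and Spred2 (ENSMUSG00000045671) on chromosome 11 from 19924375 to 20024026. Spry1 shares 710 exon bases with Gm42922 on the opposite strand, which had 71 counts in all against 618 for Spry1, so its counts are uncertain to that extent. Dusp1 shares 11 exon bases with Ergic1, and Dusp5 shares 547 with the antisense model AC137853.2, which had 0 counts. A stretch of 169 bases of Spred1 is 95.3% identical to a Vps35 transcript. Vps35 had 34350 counts in all, against 27573 for Spred1. Whether reads of this stretch were assigned to the wrong gene was not tested.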

How the data were processed

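The authors deposited raw counts, whole numbers for each gene and library. The submitters' processing notes name fastp, HISAT2 and mm10; which program and annotation gave the counts is not given in the sources used here. The authors also deposited 1 table per pair that holds, per the file headers, the log2 ratio of DKK1 over PBS, its p-value and FDR (the test is not named) and FPKM. FPKM was used only to check the order of levels.

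Counts were tested with edgeR 4.0.16 (quasi-likelihood, TMM, filterByExpr, legacy off) under R 4.3.3. The model held the preparation and the treatment, so only 1 residual degree of freedom was left for each gene; edgeR moderates the spread across genes, and the standard errors therefore draw largely on other genes. Tests were two-sided, with Benjamini-Hochberg adjustment over 17462 genes and a threshold of 0.05. The titles number the preparations and the labels name 2 mice, so the number was taken as the mouse. Same-numbered libraries deviated together (correlation 0.726 across genes). Within-pair log2 differences use a prior count of 2. Alternatives were DESeq2 1.42.0, limma-voom (limma 3.58.1), other scalings and filters, and fits without a term or a library. The model was also run on simulated data, and no result given here rests on that run. The power of the test to detect a change is not given.

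Genes named beyond the 9 are, for each pathway list and comparison, up to 4 called genes or otherwise the 2 with the smallest p, and, for the 3 highest genes per length, the nearest profile with a mean of at least 5 CPM. Jun, Spry3, Tnfrsf11a, Vpreb1, Jchain, Mzb1 and Lyz2 fall outside this rule and were named after their values were seen. Elk1, Elk3 and Srf also fall outside it and are named only to describe their list. The genes and lists were chosen with earlier results of these data known. Of the IDs, 53706 are in GENCODE M21 and 95 are not. BLAST 2.17.0 served to find near-identical transcripts (100 bases or more at an identity of 95% or above). Intervals of ratios used SciPy 1.17.1 and cover counting error only.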

Additional observations from a re-analysis of the deposited data

How the results depend on the processing

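With DKK1, 0 of the 9 genes were called under each alternative run, and each kept its direction in the fits to all 4 libraries. The count of all genes called, 9, was 5 with upper-quartile scaling, 0 with no filter on low counts, 15 with a stricter filter, 3 with legacy quasi-likelihood, 46 with DESeq2 and 2 with limma-voom. With no replicate block, that is without the pairing, it was 0, also with any 1 library left out (0 to 0).

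With 1 library left out the pairing was dropped too, so the treatments then held unequal numbers of each preparation. Without the PBS library of precursor cells 1, the log2 change with DKK1 reversed to 0.50 for Dusp4, 0.49 for Dusp5, 0.027 for Dusp6, -0.11 for Spry2 and -0.034 for Spred1. Without the DKK1 library of precursor cells 1 it was 0.16 for Dusp2 and -0.12 for Spred2, and without the PBS library of precursor cells 2 it was 0.014 for Dusp2. Without the DKK1 library of precursor cells 2 it was 0.22 for Dusp4, 0.071 for Dusp5, 0.089 for Dusp6, -0.22 for Spry2 and -0.11 for Spred1. Dusp1 and Spry1 kept their direction.

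Between the preparations, the count of all genes called, 5905, was 3507 with no filter on low counts and 3917 to 4891 with 1 library left out (3926 without the PBS library of precursor cells 2). The count of feedback genes called, 4, was 2 to 4 with 1 library left out, and the log2 difference of Dusp1 was 0.0096 without the PBS library of precursor cells 1. The cause of these shifts was not tested. By the FPKM of the authors' deposited tables, 2 genes, Dusp1 and Dusp6, changed places in the order of levels. Few counts limit Spry1 most.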
